A study of Mus musculus with 9 samples.

Results

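The 10 genes described here encode the MYC, MAX and MXD family of transcription factors: the MYC genes Myc, Mycn and Mycl, their obligate partner Max, the MXD repressors Mxd1, Mxi1, Mxd3 and Mxd4, and the larger MAX-binding repressors Mnt and Mga. The members were chosen by gene symbol, with their levels in these libraries and the contrast of Mycn with Myc in view, and all 10 were found among the 35275 gene identifiers counted. The values of the members are therefore given as a description. Where members past a threshold are counted, the share of all genes past it stands beside the count, and nothing is read from it. Levels come from RNA-seq of bulk-sorted megakaryocyte-erythroid progenitors (MEPs) of mouse bone marrow, labelled Lin-ckit+CD34-FcgammaRII/IIIlo, at 25000 cells per library. Cells were sorted by binding of HS3A8, a single-chain antibody fragment (scFv) against heparan sulfate, into a strongly binding fraction (HS3A8-high, 3 libraries) and a weakly binding fraction (HS3A8-low, 3 libraries). A set of 3 MPB49 control libraries came from MEPs stained with a scFv that has no known heparan sulfate epitope, and it represents MEPs not divided by HS3A8 binding. The labels give no strain, age, genotype or treatment. The study describes the HS3A8-low and HS3A8-high replicates as individual mice, without saying whether both fractions of a number came from the same mouse or how the control libraries were drawn. The p-values below measure the spread between these libraries.

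MYC proteins bind DNA as dimers with MAX at E-boxes, the hexamer CACGTG being the preferred form, and activate genes of ribosome production, nucleotide synthesis and translation. MXD proteins and MNT form dimers with MAX at the same sites and recruit SIN3 and histone deacetylases, and MGA joins MAX to a Polycomb complex. In blood formation MYC is the broadly used member, MYCN can serve in stem cells and early progenitors, and MXD genes are known for their rise as cells leave the cycle.

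Library totals ran from 11781637 to 15850037 counts with 13936 to 15659 genes detected. A limit of 3 counts, set here for a count of 0, corresponds to 0.175 to 0.282 CPM (counts scaled to the size of each library, with TMM). These limits cover counting error only. The MEP labels were checked against genes of the gate and 4 regulators that the gate does not use, Gata1, Klf1, Gata2 and Zfpm1. Kit, Gata1 and Klf1 were abundant in every group, with means of at least 419 CPM. Gata2 averaged 139 CPM in HS3A8-high, 298 CPM in HS3A8-low and 184 CPM in control. Zfpm1 averaged 91.3, 53.8 and 67.6 CPM in the same order and ran from 31.1 to 192 CPM between libraries. The FcgammaRII/III genes Fcgr3 and Fcgr2b, low by the gate, stood at 17.8 and 7.80 CPM in HS3A8-high replicate 3 and at 43.9 and 18.7 CPM in HS3A8-low replicate 3, above their range of 0.147 to 2.92 CPM in the other 7 libraries. Cd34, absent from the surface of the sorted cells by the gate, averaged 5.02 ± 5.30 CPM in HS3A8-high, 54.4 ± 23.6 in HS3A8-low, with 32.6 ± 15.0 in control (SD, n = 3 each). The replicate 3 libraries of both fractions stood apart in the sum of 17 granulocyte and monocyte markers, which came to 2037 CPM in HS3A8-high and 5226 CPM in HS3A8-low, against 14.1 to 312 CPM in the other 7 libraries. Mycn, Max and the calls in the network lists are therefore also given with both of these libraries left out. Control replicate 1 had the lowest scaling factor of the 9 libraries, 0.865.

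Stretches at or before the transcription starts of 4 members are shown because they hold the E-box through which the family acts or, for Mycn, letters known as E2F sites. Sequences are from RefSeq on GRCm38.p6, read 5′ to 3′ on the strand of each gene, and lie outside the GENCODE gene body. Promoters were taken as 250 bases before to 50 bases after each RefSeq start and were found for 9 of the 10 members, all but Myc. Capitals mark the letters searched, on both strands.
Mycn, chr12:12941915-12942086, minus strand, E2F letters in capitals: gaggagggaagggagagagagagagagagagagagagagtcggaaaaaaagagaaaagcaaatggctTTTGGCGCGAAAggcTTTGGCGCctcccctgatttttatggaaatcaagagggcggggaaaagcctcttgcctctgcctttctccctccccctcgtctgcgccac
Max, chr12:76962226-76962271, minus strand, E-box in capitals: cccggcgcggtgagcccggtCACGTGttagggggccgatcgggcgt
Mnt, chr11:74830781-74830826, plus strand, E-box in capitals: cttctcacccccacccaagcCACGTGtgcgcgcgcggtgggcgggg
Mxd4, chr5:34187904-34187949, minus strand, E-box in capitals: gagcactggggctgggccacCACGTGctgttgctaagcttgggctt

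The E-box CACGTG, which reads the same on both strands, began 3 bases before the start in Max, so that the motif and its window cross the RefSeq start, and began 123 before it in Mnt and 219 before it in Mxd4. It was found in 3 of the 9 members with a promoter, against 2187 of 27025 genes (8.09%). The E2F letters TTTGGCGC or TTTCGCGC were found in 0.929% of all promoters and, among members, in Mycn alone, where 3 matches began 183, 179 and 168 bases before the start and the first pair overlapped. The GATA letters AGATAA were found in 12.7% of all promoters and in 0 of the 9 members. These matches describe letters in the windows and do not show binding.

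Myc (ENSMUSG00000022346, GRCm38 chromosome 15, 61985391 to 61990374, plus strand), the broadly expressed growth regulator, was the most abundant member per kb of exon in every library. It measured 689.7, 793 and 811 CPM in HS3A8-high replicates 1 to 3, 714, 787 and 633 CPM in HS3A8-low and 508, 829.7 and 813 CPM in control. The 3 groups overlapped, with control replicate 1 lowest of all 9 libraries. The group means were 765 ± 65.5, 711 ± 77.0 and 717 ± 181 CPM (SD, n = 3 each), and the fitted log2 fold change of HS3A8-high over HS3A8-low was 0.08 ± 0.102 (standard error, SE).

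Mycn (ENSMUSG00000037169, chromosome 12, 12936093 to 12941914, minus strand), a paralog of Myc best known from embryonic tissue and neural tumors, divided the groups without overlap. It measured 1.51, 0.602 and 1.39 CPM in HS3A8-high, from 24, 8 and 21 counts. It measured 38.4, 33.2 and 21.8 CPM in HS3A8-low, from 657, 472 and 259 counts, and 10.9, 14.5 and 15.4 CPM in control, from 116, 228 and 210 counts. Every HS3A8-high library lay below every control library, and every HS3A8-low library above every control library. Mean levels were 1.17 ± 0.492 CPM in HS3A8-high, 31.1 ± 8.52 CPM in HS3A8-low and 13.6 ± 2.38 CPM in control. The control mean lay near the midpoint of the 2 fraction means, 16.1 CPM. HS3A8-high was 26.8-fold below HS3A8-low, a log2 fold change of -4.74 ± 0.407 (SE). Within equal replicate numbers HS3A8-low exceeded HS3A8-high 25.5-fold, 55.1-fold and 15.7-fold, so the pair with the raised granulocyte and monocyte markers had the smallest ratio. Leaving out 1 library at a time gave log2 fold changes between -4.97 and -4.44, and leaving out both replicate 3 fractions gave -5.05.

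Mycl (ENSMUSG00000028654, chromosome 4, 122995652 to 123002485, plus strand), the third MYC gene and a regulator known from dendritic cells, was near the limit of detection. It measured 0.314, 0 and 0.661 CPM in HS3A8-high, from 5, 0 and 10 counts, where the limit set for the count of 0 is 0.226 CPM. It measured 3.04, 1.55 and 4.54 CPM in HS3A8-low and 2.35, 0.701 and 0.587 CPM in control. HS3A8-low lay above HS3A8-high in all libraries, while control overlapped both. The log2 fold change of HS3A8-high over HS3A8-low was -3.19 ± 0.919 (SE), and it ranged from -4.14 to -2.64 when 1 library was left out.

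**Figure D1:**
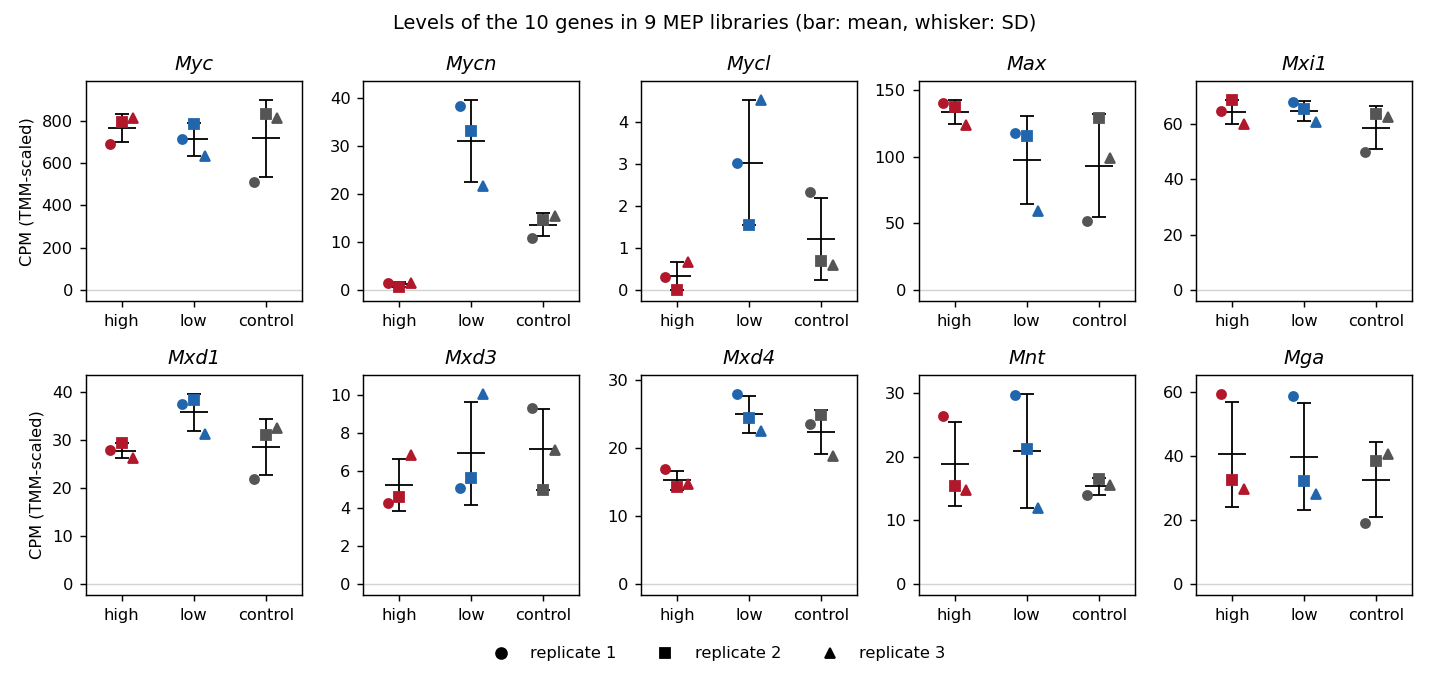
Level of each of the 10 genes in CPM (vertical axes, linear and scaled per gene) in the 3 HS3A8-high, 3 HS3A8-low and 3 control libraries, with the group mean as a bar and the SD as a whisker. Mycn stands at 0.602 to 1.51 CPM in HS3A8-high and at 21.8 to 38.4 CPM in HS3A8-low, whereas Myc spans 508 to 829.7 CPM with overlapping groups.

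Myc and Mycn were compared within each library per kilobase of exon (CPM per kb, Myc over 2717 and Mycn over 3295 exonic bases), a ratio that does not depend on the scaling between libraries. Mycn came to 0.128% ± 0.0599 of Myc in HS3A8-high, 3.58% ± 0.805 in HS3A8-low, with 1.59% ± 0.165 in control (SD, n = 3 each). The ranges, 0.0626 to 0.180%, 2.84 to 4.44% and 1.45 to 1.77%, did not overlap. Myc made up 99.8% of the summed MYC genes per kb in HS3A8-high, 96.3% in HS3A8-low, with 98.3% in control. The sum of the 3 MYC genes was 282 ± 24.1, 272 ± 29.8 and 268 ± 67.1 CPM per kb, so groups that differed in Mycn had overlapping MYC sums.

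**Figure D2:**
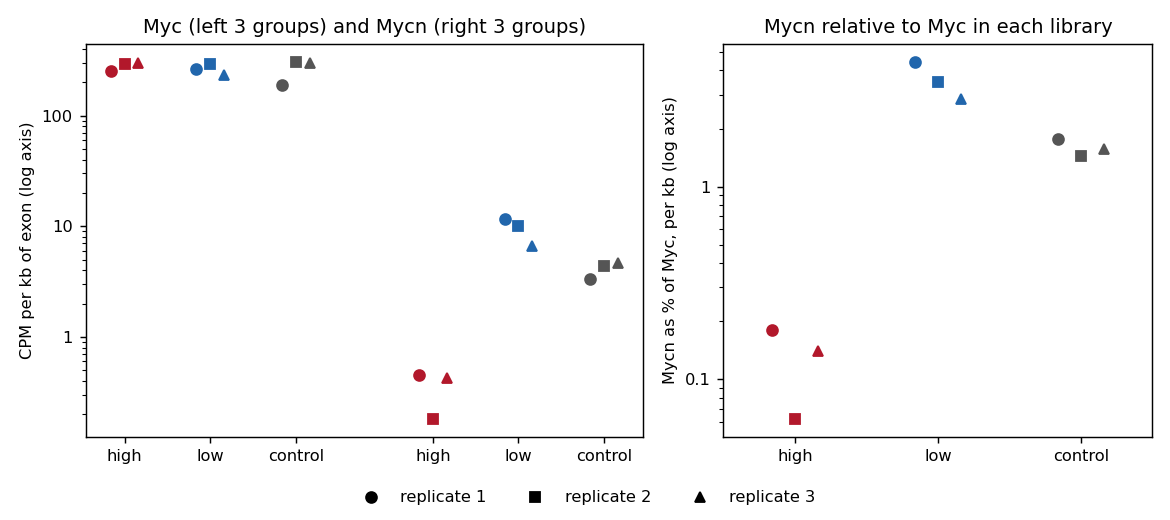
Left, Myc and Mycn in CPM per kb of exon (log axis) in each of the 9 libraries by group. Right, Mycn as a percent of Myc per kb (log axis), at 0.0626 to 0.180% in HS3A8-high, 1.45 to 1.77% in control and 2.84 to 4.44% in HS3A8-low.

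Max (ENSMUSG00000059436, chromosome 12, 76937269 to 76962201, minus strand), the shared dimer partner, was the second most abundant member per kb of exon in every group. It measured 139.9, 137 and 123 CPM in HS3A8-high, 118, 116 and 59.5 CPM in HS3A8-low and 51.9, 129 and 98.8 CPM in control. Every HS3A8-high library was above every HS3A8-low library, with 123 CPM the lowest of the former and 118 CPM the highest of the latter, and control overlapped both. The log2 fold change of HS3A8-high over HS3A8-low was 0.42 ± 0.251 (SE) and came to 0.17 without HS3A8-low replicate 3, one of the libraries with raised granulocyte and monocyte markers, and to 0.24 without both replicate 3 fractions. Per kb, Max came to 37.1 ± 2.46 in HS3A8-high, 27.1 ± 9.19 in HS3A8-low, with 25.9 ± 10.8 in control, which was 0.133 ± 0.0191, 0.0983 ± 0.0263 and 0.0939 ± 0.0203 of the summed MYC genes.

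Among the MXD repressors, Mxd4 and Mxd1 had higher levels in every HS3A8-low library than in any HS3A8-high library, and Mxi1 and Mxd3 overlapped. Mxd4 (ENSMUSG00000037235, chromosome 5, 34173883 to 34187720, minus strand) measured 16.9, 14.2 and 14.7 CPM in HS3A8-high, 28.0, 24.4 and 22.6 CPM in HS3A8-low and 23.5, 24.9 and 18.8 CPM in control. HS3A8-high lay below both other groups in every library, and the log2 fold change over HS3A8-low was -0.74 ± 0.167 (SE). Mxd1 (ENSMUSG00000001156, chromosome 6, 86647042 to 86669161, minus strand), induced as many cells differentiate, measured 27.9, 29.3 and 26.2 CPM in HS3A8-high, 37.6, 38.4 and 31.3 CPM in HS3A8-low and 21.8, 31.0 and 32.6 CPM in control. The fractions did not overlap, control overlapped both, and the log2 fold change of HS3A8-high over HS3A8-low was -0.39 ± 0.133 (SE).

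Mxi1 (ENSMUSG00000025025, chromosome 19, 53310518 to 53375810, plus strand), also called MXD2, was the most abundant MXD gene per kb. It measured 64.6, 68.5 and 60.0 CPM in HS3A8-high, 67.8, 65.4 and 60.7 CPM in HS3A8-low and 49.7, 63.5 and 62.6 CPM in control, with all groups overlapping and a log2 fold change of -0.03 ± 0.102 (SE) between the fractions. Mxd3 (ENSMUSG00000021485, chromosome 13, 55325168 to 55329823, minus strand), the member known from dividing cells, measured 4.27, 4.59 and 6.81 CPM in HS3A8-high, 5.09, 5.62 and 10.1 CPM in HS3A8-low and 9.31, 4.97 and 7.12 CPM in control. The groups overlapped, and both replicate 3 fractions were the highest of their group. The log2 fold change was -0.43 ± 0.356 (SE).

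The MXD genes together came to 17.4 ± 0.374 CPM per kb in HS3A8-high, 20.4 ± 0.261 in HS3A8-low, with 18.3 ± 1.04 in control. Mxi1 made up 54.3% ± 2.59 of that sum in HS3A8-high, 46.4% ± 2.19 in HS3A8-low, with 46.9% ± 3.76 in control, and Mxd4 made up 10.4% ± 1.12, 14.5% ± 1.42 and 14.5% ± 2.47. The summed MYC genes exceeded the summed MXD genes 16.2-fold ± 1.36, 13.3-fold ± 1.46 and 14.6-fold ± 2.95 per kb. Exons overlap an antisense gene over 6.06% of Mxd4, 4.43% of Mxd3 and 2.84% of Mxi1, and the sources used here do not say whether counting used strand, so a part of these counts could belong to the antisense genes.

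Mnt (ENSMUSG00000000282, chromosome 11, 74830920 to 74845725, plus strand), the widely expressed MYC antagonist, measured 26.4, 15.3 and 14.8 CPM in HS3A8-high, 29.8, 21.2 and 11.8 CPM in HS3A8-low and 13.9, 16.5 and 15.5 CPM in control. Mga (ENSMUSG00000033943, chromosome 2, 119897228 to 119969581, plus strand), the scaffold of a MAX-containing Polycomb complex, measured 59.5, 32.6 and 29.6 CPM in HS3A8-high, 58.9, 32.3 and 28.1 CPM in HS3A8-low and 19.0, 38.3 and 40.6 CPM in control. Replicate 1 was the highest library of both fractions for both genes, and the groups overlapped. The log2 fold change between the fractions was -0.18 ± 0.384 (SE) for Mnt and 0.00 ± 0.372 for Mga. With the replicate number as a block, the SE of Mga was 0.0974, and its fractions were close within each number (HS3A8-low at 0.990, 0.988 and 0.952 of HS3A8-high).

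By level per kb, the order in HS3A8-high was Myc at 281, Max at 37.1, Mxi1 at 9.43, Mnt at 4.08, Mxd1 at 3.93, Mga at 2.64, Mxd3 at 2.20, Mxd4 at 1.80, Mycn at 0.354 and Mycl at 0.0805. Mnt and Mxd1 differed by less than the larger of their SDs, and so did the neighbors among Mga, Mxd3 and Mxd4. In HS3A8-low the order was Myc at 262, Max at 27.1, Mxi1 at 9.47, Mycn at 9.44, Mxd1 at 5.06, Mnt at 4.52, Mxd4 at 2.95, Mxd3 at 2.93, Mga at 2.59 and Mycl at 0.753. There Mycn stood beside Mxi1, apart by less than its SD of 2.59, and the neighbors from Mxd1 down to Mga also differed by less than the larger SD. In control Mycn, at 4.13 ± 0.723, stood beside Mxd1 at 4.03 ± 0.822, and the neighbors from Mycn through Mxd1, Mnt, Mxd3 and Mxd4 down to Mga differed by less than the larger SD.

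The 10 members all passed the low-count filter of the fit of HS3A8-high with HS3A8-low, which tested 11791 genes. At an adjusted p under 0.05 (quasi-likelihood test of edgeR, Benjamini-Hochberg), 1 member was called, Mycn, in a comparison that called 3.82% of all genes. Calls higher in HS3A8-low made up 3.21% of the genes tested and calls higher in HS3A8-high 0.611%. With the replicate number as a block, 3 members were called, Mycn, Mycl and Mxd4, all higher in HS3A8-low, where 11.6% of all genes were called (8.27% higher in HS3A8-low and 3.32% higher in HS3A8-high). The fractions did not overlap in 5 members, 4 higher in HS3A8-low (Mycn, Mycl, Mxd1 and Mxd4) and Max higher in HS3A8-high, beside 28.7% of all genes (14.5% higher in HS3A8-low and 14.2% higher in HS3A8-high). The median log2 fold change of the 10 members was -0.28 against -0.03 over all genes. Without HS3A8-low replicate 2 edgeR called 0 of all genes, with 1900 at an unadjusted p under 0.05.

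**Figure D3:**
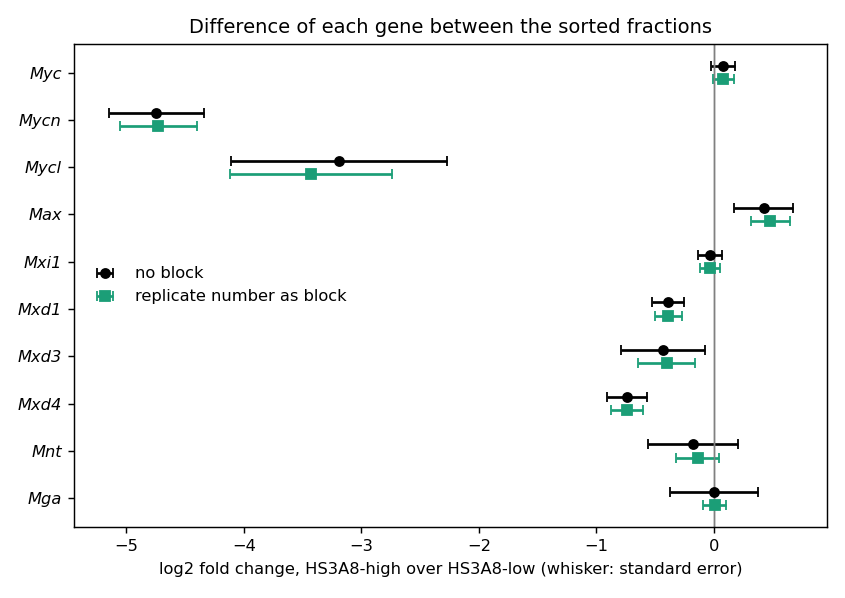
Log2 fold change of HS3A8-high over HS3A8-low (horizontal axis) for each of the 10 genes with its SE, without a block (circles) and with the replicate number as a block (squares). Mycn at -4.74 and Mycl at -3.19 lie far to the left, Mxd4 lies at -0.74 and the other members lie between -0.43 and 0.42.

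Against control, 9 members passed the filter in HS3A8-high and 10 in HS3A8-low. These comparisons share the control libraries, so their values are set side by side and not correlated. The log2 fold change of Mycn was -3.52 ± 0.409 in HS3A8-high and 1.19 ± 0.270 in HS3A8-low (SE). Mxd4 was at -0.54 ± 0.187 and 0.16 ± 0.197, Max at 0.52 ± 0.320 and 0.07 ± 0.383, and Myc at 0.10 ± 0.225 and -0.01 ± 0.222. Mycl, tested in HS3A8-low only, was at 1.34 ± 0.698. The other members lay between -0.43 and 0.32 in HS3A8-high and between -0.04 and 0.45 in HS3A8-low. The number of members called was 0 in both, where edgeR called 0.0174% of genes in HS3A8-high and 0.0% in HS3A8-low, the latter with 673 genes at an unadjusted p under 0.05. Of 13 alternative fits, Mycn was past the threshold in 4 for HS3A8-high (DESeq2, voom, no count filter and all 9 libraries in 1 fit) and in 2 for HS3A8-low (DESeq2 and voom). Mycn and Mxd4 lay below control in every HS3A8-high library, beside 7.49% of genes, and 0 members lay above it in all of them, beside 6.67%. Mycn lay above control in every HS3A8-low library, beside 7.85% of genes, and 0 members lay below it in all of them, beside 4.99%.

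**Figure D4:**
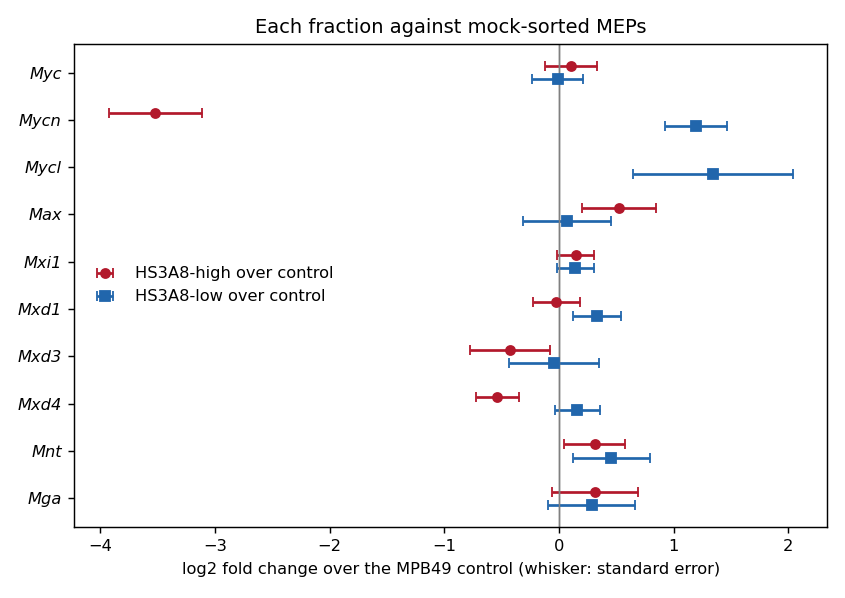
Log2 fold change over the MPB49 control (horizontal axis) with its SE for HS3A8-high (circles) and HS3A8-low (squares). Mycn lies at -3.52 in HS3A8-high and at 1.19 in HS3A8-low, and Mycl is shown for HS3A8-low only because it did not pass the low-count filter in the other fit.

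Over the 9 libraries, genes with a pattern most like that of Mycn, by Pearson's r of log2 CPM among 9337 genes, included Gimap1 (r = 0.994), Gcnt2 (0.993), Tcf7 (0.991) and Serpina3g (0.985). Tcf7, a transcription factor of T cells and early progenitors, averaged 0.698 CPM in HS3A8-high, 59.1 CPM in HS3A8-low and 12.3 CPM in control. The genes most like Myc were Ppme1 (0.978), Utp6 (0.977), Aco1 (0.967), Pdlim1 (0.960) and Prpf6 (0.958), and their group means lay close together, as for Utp6 at 144, 125 and 131 CPM. Among members, Mycn was most like Mxd4 (r = 0.922) and Mycl (0.812) and stood at -0.17 with Myc, while Myc was most like Max (0.816) and Mxi1 (0.749). Without the control libraries, Gimap1, Gcnt2, Tcf7 and Serpina3g ranked 3, 10, 4 and 34 for Mycn. Ppme1, Utp6, Aco1, Pdlim1 and Prpf6 then ranked 3, 40, 23, 57 and 91 for Myc. The points share their libraries and their 3 groups, so these values are descriptions.

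Of the marker sums of other cells, those of stem and T and NK cells were, like Mycn, lowest in HS3A8-high and highest in HS3A8-low with no overlap of the 3 groups. The 16 stem and multipotent progenitor markers summed to 131 to 152 CPM in HS3A8-high, 374 to 388 CPM in HS3A8-low and 274 to 288 CPM in control, with Procr at 0 in every HS3A8-high library. The 16 megakaryocyte markers summed to 83.6 to 130.3 CPM, 284 to 528 CPM and 226 to 343 CPM, with Gp6 at 0 in every HS3A8-high library and an overlap of HS3A8-low with control. The 10 T and NK cell markers, of which Tcf7 is one, summed to 4.21 to 32.1 CPM, 182 to 224 CPM and 52.4 to 111 CPM, with Cd4 at 0 in both fractions. The 10 B cell markers summed to 1.35 to 5.36 CPM, 10.9 to 14.3 CPM and 4.59 to 12.6 CPM, so that the fractions did not overlap and control overlapped both, with Ms4a1 and Pax5 at 0 in all 9 libraries. The 8 basophil and mast cell markers summed to 1.63 to 80.7 CPM, 20.9 to 165 CPM and 10.05 to 23.1 CPM, overlapping between all groups and highest in both replicate 3 fractions, with Mcpt4 and Tpsb2 at 0 throughout. The part of these cells in the levels of Mycn was not tested, and in bulk RNA fewer cells expressing a gene and less of its RNA per cell cannot be told apart.

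Other genes of the network were taken from 7 lists of 87 genes in all, of which 84 passed the filter between the fractions. None of these is a member. The lists, like the members, were chosen with earlier results of these data known, so their counts are given as a description. In edgeR's test over all genes, 6 were higher and 1 was lower in HS3A8-high, 8.33% of those tested beside 3.82% of all genes, and with the replicate number as a block 23 were higher and 4 lower, 32.1% beside 11.6%. Leaving out 1 library reduced the 7 calls to 0 without HS3A8-high replicate 1 or 2 or HS3A8-low replicate 1 or 2, to 2 without HS3A8-high replicate 3 and to 4 without HS3A8-low replicate 3, and 3 were called without both replicate 3 fractions. Against control 0 of 84 were called for either fraction by edgeR or DESeq2. Of all genes, edgeR called 0.0174% for HS3A8-high and 0.0% for HS3A8-low, and DESeq2 called 143 and 93 genes. At an unadjusted p under 0.05 in edgeR there were 2 of the 84 for HS3A8-high and 3 for HS3A8-low. Voom called 1 of the 84 for HS3A8-low, beside 287 genes in all.

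The 36 growth and ribosome genes known as MYC targets were all tested, and 33 of them had a higher level in HS3A8-high. Their log2 fold changes ran from -0.30 to 0.61 with a median of 0.26 against -0.03 over all genes. A rise in HS3A8-high passed the test for 5 of them without the block, beside 0.611% of all genes, and for 19 with it, beside 3.32%. The fractions did not overlap in 27, all higher in HS3A8-high, beside 14.2% of all genes. Srm, the spermidine synthase of polyamine production, measured 670.4, 746 and 736 CPM in HS3A8-high, 484, 534 and 508 CPM in HS3A8-low and 538, 629 and 641 CPM in control. It rose by a log2 fold change of 0.47 ± 0.0717 (SE), with an adjusted p of 0.0257 in edgeR and 0.00857 with the block. Every HS3A8-high library was above every other library for this gene.

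Bop1, a factor of 60S ribosome assembly, rose by 0.38 ± 0.0766 on the log2 scale (adjusted p = 0.0456 in edgeR). Ncl, the nucleolar protein nucleolin, rose by 0.38 ± 0.0682 (adjusted p = 0.0354 in edgeR), and Hspd1, the mitochondrial chaperonin, by 0.36 ± 0.0656 (adjusted p = 0.0363 in edgeR). Odc1, the ornithine decarboxylase that feeds polyamine synthesis, rose by 0.34 ± 0.0632 (adjusted p = 0.0364 in edgeR) and is named after its value was seen, as the fifth call of this list. Each of these 5 genes was higher in 3 of 3 HS3A8-high libraries than in any HS3A8-low library. With 1 library left out the adjusted p ranged from 0.0428 to 0.117 for Srm, 0.0502 to 0.177 for Bop1, 0.0404 to 0.144 for Ncl, 0.0557 to 0.147 for Hspd1 and 0.0502 to 0.155 for Odc1 in edgeR. Myc itself, at a log2 fold change of 0.08 ± 0.102, overlapped between the same libraries.

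**Figure D5:**
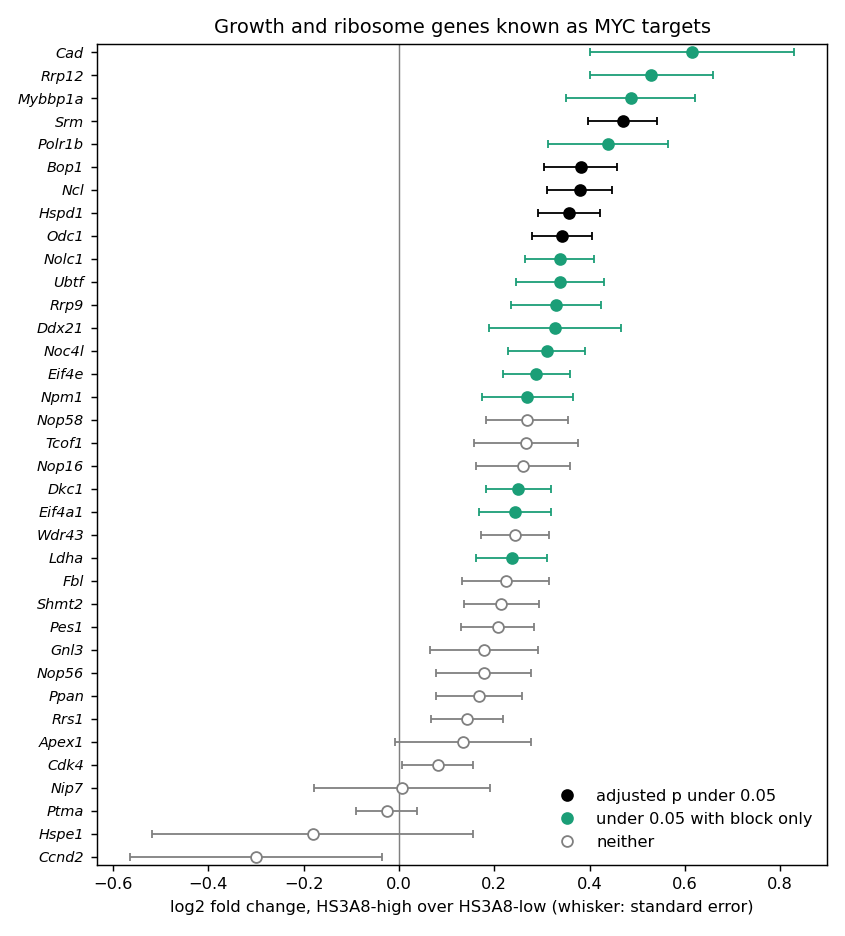
Log2 fold change of HS3A8-high over HS3A8-low (horizontal axis) with its SE for 36 growth and ribosome genes known as MYC targets, ordered by size. Black points passed an adjusted p of 0.05 in edgeR, green points only with the replicate number as a block, and 33 of the 36 points lie above 0.

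Of the 28 growth genes with a promoter, 9 held the E-box (32.1%, beside 8.09% of all genes). The list was made of known MYC targets, and MYC binds at E-boxes, so nothing is read from the difference. Hspd1 is shown because it was the 1 gene with the E-box among the 5 called without the block. The E-box began 80 bases before the start.
Hspd1, chr1:55088298-55088343, minus strand, E-box in capitals: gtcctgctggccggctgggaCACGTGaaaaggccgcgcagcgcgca

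The growth genes moved beside other lists. The 25 cell cycle genes summed to 9507 to 9884 CPM in HS3A8-high, 7997 to 8743 CPM in HS3A8-low and 7551 to 9413 CPM in control. The 16 erythroid markers summed to 15677 to 16479.6 CPM, 12048 to 13453 CPM and 13982 to 15410.0 CPM. Not all moved alike: 11 erythroid markers were higher and 5 lower in HS3A8-high, as were 21 and 4 of the cell cycle genes. Without the block 1 erythroid marker and 4 cell cycle genes were called higher, beside 0.611% of all genes. With the block 6 and 9 were, beside 3.32%. The fractions did not overlap in 9 and 15, all higher in HS3A8-high, beside 14.2% of all genes. The part of these lists in the levels of the growth genes was not tested.

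All 5 tested genes of the list repressed by MYC with its partner MIZ1, of 7 listed, had a lower level in HS3A8-high, with a median log2 fold change of -1.07 against -0.03 over all genes. Without the block 1 was called lower, beside 3.21% of all genes, and with it 2 were, beside 8.27%. Ndrg1, a stress- and differentiation-linked gene, measured 5.46, 11.1 and 6.41 CPM in HS3A8-high, 43.0, 41.9 and 22.9 CPM in HS3A8-low and 15.2, 24.9 and 14.6 CPM in control. It fell by 2.26 ± 0.363 on the log2 scale (adjusted p = 0.0283 in edgeR, 0.0213 to 0.140 with 1 library left out). Cdkn1a, the cell cycle inhibitor p21, stood at a log2 fold change of -1.76 ± 0.490 and passed with the block alone (adjusted p = 0.105 in edgeR without it, 0.0261 with it).

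Of 14 coactivators and binding partners, 12 had a higher level in HS3A8-high and 1 was called higher, beside 0.611% of all genes. Ruvbl2, an ATPase of chromatin complexes that bind MYC, measured 431, 469 and 454 CPM in HS3A8-high, 326, 343 and 341 CPM in HS3A8-low and 375, 394 and 391 CPM in control. It rose by 0.40 ± 0.0680 on the log2 scale (adjusted p = 0.0323 in edgeR, 0.0451 to 0.139 with 1 library left out), and its 3 groups did not overlap. With the block its partner Ruvbl1 and the MYC cofactor Hcfc1 also passed (adjusted p = 0.0332 and 0.0129 in edgeR), beside 3.32% of all genes called higher.

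Genes of MYC protein turnover gave 0 calls among 10 tested, beside 3.82% of all genes. The block gave 1 call higher in HS3A8-high and 2 lower, beside 3.32% and 8.27% of all genes. With the block, Aurka, a mitotic kinase that stabilizes MYCN protein, rose by 0.43 ± 0.0879 on the log2 scale (adjusted p = 0.0335 in edgeR, 0.174 without the block). Bin1, an adaptor that binds MYC, fell by 2.49 ± 0.238 (adjusted p = 0.00547 in edgeR with the block, 0.0512 without it), and Usp28, a deubiquitinase of MYC, fell by 0.88 ± 0.191 (0.0395 and 0.109). None of the 8 MXD corepressors was called with or without the block, with Hdac1 at 0.08 ± 0.0701 and Hdac2 at 0.08 ± 0.0680. The same held for the 9 subunits of the Polycomb complex that MGA joins, with Tfdp1 at 0.14 ± 0.0797 and E2f6 at 0.08 ± 0.101. It also held for the 2 tested genes of the parallel MLX branch, Mlx at -0.12 ± 0.129 and Mlxip at -0.06 ± 0.219.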

How the data were processed

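RNA was sequenced as low-input bulk libraries. The authors mapped reads to mm10 and, per the labels' processing notes, used STAR 2.5 and HTSeq 0.6.1, and deposited raw counts per gene. The annotation release and strand setting are not given in the sources used here. Of 35275 identifiers, 34490 matched GENCODE M21 on GRCm38.

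Counts were tested in R 4.3.3 with the quasi-likelihood test of edgeR 4.0.16 (TMM, filterByExpr, Benjamini-Hochberg over all genes, adjusted p under 0.05), with the 2 groups compared in each fit. The SE of a log2 fold change was derived from the test, as its absolute value divided by the square root of the F value. Levels are CPM with TMM over 9 libraries, and CPM per kb divides by union exon length. DESeq2 1.42.0 and voom of limma 3.58.1 were alternatives. The code was tested on simulated counts. Members and lists were chosen with earlier results of these data known. Named were all members, up to 4 called genes per list and direction or otherwise the 2 most abundant, and the 5 genes most like Mycn and Myc (mean of at least 5 CPM, prior count 2). Of the genes this rule names, 2 are not reported here.

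Residuals of equally numbered HS3A8-high and HS3A8-low libraries correlated at r = 0.345 to 0.517, against -0.482 to 0.114 for unequal numbers, over 11791 genes. Every equal pair exceeded 0.1 and every unequal pair. The unequal pair of HS3A8-high replicate 1 and HS3A8-low replicate 2, at 0.114, exceeded 0.1 too. On this basis the numbers were taken to pair the fractions. Calls with the replicate number as a block are given for the members, the network lists and the erythroid and cell cycle lists. Calls of the gate genes and of the other marker lists are not given. Residuals are deviations from the mean of the 3 libraries of a group, so positive values for equal numbers lower those for unequal numbers. The contrast between them is therefore not independent support. The pairing was read from the same data that the block then tests. Both replicate 3 fractions also shared the raised granulocyte and monocyte markers.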

Additional observations from a re-analysis of the deposited data

Results flagged for a closer look

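Among the 10 members and the 87 genes of the network lists, the fractions lay on opposite sides of control in 5 with a mean of at least 10 counts. In these, every HS3A8-high library lay on one side of all control libraries and every HS3A8-low library on the other side. The share of all genes in this order was not taken, so nothing is read from the count. Groups did not overlap in 28.7% of all genes between the fractions. Against control the share was 14.2% for HS3A8-high and 12.8% for HS3A8-low. Given as log2 differences from the control mean, Mycn was at -3.55 in HS3A8-high, with HS3A8-low at 1.19, and Bin1 was at -1.42 and 0.952 in the same order. The opposite order was found for Ruvbl2 at 0.223 and -0.201, Odc1 at 0.0862 and -0.283 and Srm at 0.252 and -0.244. Both differences share the control libraries, and their opposition was not tested as such. The control represents MEPs not divided by HS3A8 binding. By this design a gene that differs between the fractions would lie between them in control, so nothing is read from the opposition. The direct test of HS3A8-high with HS3A8-low in edgeR passed for Ruvbl2, Odc1 and Srm without a block and for Bin1 with the replicate number as a block. Mycn is a description, as a member chosen with this contrast known. The network lists were also chosen with earlier results of these data known, so Ruvbl2, Odc1, Srm and Bin1 are descriptions too.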

How the results depend on the processing

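Between the fractions, 451 genes were called, 84.0% of them higher in HS3A8-low. DESeq2 called 1224, voom with quality weights 1490 and edgeR with the replicate block 1367 (71.3% higher in HS3A8-low). Leaving out both replicate 3 fractions, chosen after seeing the data, gave 748, and leaving out 1 library gave 0 to 439. The 7 calls in the network lists became 22 with DESeq2, 24 with voom, 27 with the replicate block, 2 with all 9 libraries in 1 fit, 3 without both replicate 3 fractions and 0 to 4 with 1 library left out. Against control, the 2 genes called in HS3A8-high became 143 with DESeq2, 100 with voom, 9 without a count filter, 32 with all 9 libraries in 1 fit, 0 with the replicate block and 0 to 5 with 1 library left out. The 0 called in HS3A8-low became 93 with DESeq2 and 287 with voom, 1 of them in the network lists. Mycn as a percent of Myc in control was 1.93 without division by length. The cause of these shifts was not tested. Equal replicate numbers did not correlate with control (r = -0.248 to -0.0645 for HS3A8-high and -0.362 to 0.0187 for HS3A8-low), so those blocks rest on a number alone.

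Log2 fold changes of the members between the fractions moved by less than the SD between replicates in 139 of 140 alternative values. The sign turned in 8, all in Myc, Mxi1, Mnt and Mga. With 3 libraries per group and under 30 counts of Mycn in each HS3A8-high library, its level there is known less precisely than in the other groups.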
